A study of Mus musculus with 14 samples.

Results

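The genes described are 45 mouse genes of DNA replication and nucleotide supply, measured in small intestinal organoids. They were picked by symbol, from the origin complex and helicase through clamp, polymerases and ligase to the enzymes that make deoxynucleotides and the factors that rebuild chromatin behind the fork. All 45 were found among the 18781 genes of the deposited table. All 45 also had a mean of at least the log2 of 10 on its log2 scale, as 12802 genes did, so the filter on low values removed none. The study crossed mice that lose *Rnaseh2b*, which encodes a subunit of RNase H2, with mice that lose the autophagy gene *Atg16l1* in intestinal epithelium. Organoids were grown in IntestiCult medium with no treatment, and stranded mRNA libraries were made from their total RNA. Values are normalised log2 expression values as the authors deposited them. Their scale strongly reduces the spread of low genes, with a median SD between libraries of 0.001 at means of -3 to -2 and 0.151 at means of 6 to 7. Fold changes of low genes may therefore be understated. The number of reads behind each library is unknown.

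WT organoids (4 libraries) carried floxed alleles of both genes and no Cre, labelled ATG16L1flox/flox_RNaseH2Bflox/flox. *Rnaseh2b* KO organoids (*Rnaseh2b* ΔIEC, 2 libraries) were labelled RNaseH2Bflox/flox_VillinCre+/-. *Atg16l1* KO organoids (*Atg16l1* ΔIEC, 4 libraries) were labelled ATG16L1flox/flox_VillinCre+/-. Double KO organoids (*Atg16l1/Rnaseh2b* ΔIEC, 4 libraries) were labelled ATG16L1flox/flox_RNaseH2Bflox/flox_VillinCre+/-. *Villin* drives Cre in the intestinal epithelium, and only the WT group lacked it, so Cre itself and the deletions cannot be told apart in comparisons with WT. The authors set aside 2 other *Rnaseh2b* KO samples because of their read counts. The labels give no strain, age or sex, and nothing says that libraries of a group are separate animals. All p-values therefore measure only the spread between these samples. SE stands for the standard error of a log2 fold change. Values of the libraries of a genotype are listed from library 1 upwards.

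Before S phase, the origin recognition complex with CDC6 and CDT1 loads the MCM helicase onto DNA, and CDC45 and GINS later turn it on. Primase and polymerase alpha start each strand, polymerases epsilon and delta extend them on the PCNA clamp, RPA covers single-stranded template, and FEN1 and ligase join the lagging strand. Ribonucleotide reductase and thymidylate enzymes supply the nucleotides, and many of these genes are transcribed under E2F factors at the entry to S phase. In the intestine, replication is a feature of crypt stem and transit-amplifying cells, which organoid cultures keep beside differentiated cells. Replicative polymerases sometimes insert ribonucleotides, which RNase H2 removes.

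The targeted genes followed the labels. *Rnaseh2b* had values of 8.47, 8.41, 8.58 and 8.70 in WT, 8.71, 8.72, 8.58 and 8.48 in *Atg16l1* KO, 7.21 and 7.15 in *Rnaseh2b* KO, and 7.92, 7.68, 7.79 and 7.84 in double KO libraries. Every library with deleted *Rnaseh2b* was below every other library, and the double KO libraries were higher than the *Rnaseh2b* KO libraries. *Atg16l1* had values of 9.43, 9.54, 9.44 and 9.44 in WT, 6.87, 7.35, 6.75 and 6.74 in *Atg16l1* KO, 9.52 and 9.53 in *Rnaseh2b* KO, and 8.37, 8.14, 8.57 and 8.47 in double KO libraries. It was lower in all libraries in which it was deleted than in all others, again with the double KO libraries above those of the single deletion. All 7 epithelial markers were tested, with mean log2 values from 12.50 (*Cdx2*) to 14.91 (*Krt19*). Of 12 fibroblast, endothelial and immune markers, 10 were in the table and only 3 passed the filter, the most abundant being *Vim* at 7.87.

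Levels of the 45 genes differed widely from gene to gene. Exon length was the union of all annotated exons of a gene, which can exceed the length of its mRNA, so the order by length depends partly on annotation. In WT organoids the log2 value per kilobase of exon was highest for *Pold2* (10.16), a subunit of polymerase delta, and *Pcna* (10.02), followed by *Mcm6* (9.80) and *Rrm2* (9.69). On the same per-length scale it was lowest for *Gins3* (5.72), *Ticrr* (6.33), *Prim2* (6.36), *Cdc6* (6.37) and *Orc1* (6.40), so *Cdc6* and *Orc1*, which load the helicase, were far below *Mcm6*, a part of it. The differences between genotypes were small beside this range, the largest log2 fold change against WT being 0.33, for *Mcm5* in double KO organoids. Bulk RNA does not separate a change in the number of replicating cells from a change in RNA per cell, so these cannot be told apart here.

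Against WT, 18 of the 45 genes rose in double KO organoids and none fell, as called by limma at an adjusted p under 0.05 over all tested genes. None of the 18 passed when libraries 1 and 2, and 3 and 4, of each genotype were fitted as correlated pairs, where 0.664% of all genes passed at the adjusted threshold. These pairs were set by library number, and the labels do not name them. In that fit 16 of the 45 had an unadjusted p under 0.05 in limma, and the share of all genes at that level is not given. In the fit without this correlation 8.1% of all tested genes rose and 8.01% fell. The median log2 fold change was 0.16 over the 45 genes and 0.00 over all genes. In *Rnaseh2b* KO organoids 6 genes rose and 1 fell, where 14.4% and 12.3% of all genes did, with a median of 0.11 against 0.00. In *Atg16l1* KO organoids 3 rose and 2 fell, beside 8.73% and 10.4% of all genes, with a median of 0.06 against 0.00. With correlated pairs only *Rrm2* in *Rnaseh2b* KO organoids passed. These 3 comparisons share the WT libraries. At an unadjusted p under 0.05 there were 31 of the 45 genes in double KO (33.0% of all genes), 17 in *Rnaseh2b* KO (39.3% of all genes) and 11 in *Atg16l1* KO organoids (34.3% of all genes).

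Counted by overlap of libraries, 24 of the 45 genes were higher in every double KO library than in every WT library, as were 11.4% of all genes. In *Rnaseh2b* KO organoids 19 were (28.4% of all genes), and in *Atg16l1* KO organoids 9 were (11.5% of all genes). An exact two-sided permutation test of these groups cannot give a p below 0.029 for 4 libraries against 4, or below 0.067 for 2 against 4. Lower than every WT library were 4 of the 45 genes in *Rnaseh2b* KO organoids (*Orc1*, *Pola1*, *Pold1* and *Pole*), 2 in *Atg16l1* KO organoids (*Orc1* and *Pola2*) and 0 in double KO organoids, where 27.0%, 13.1% and 10.9% of all genes were.

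The libraries of a genotype were unequal. In double KO library 1 the median difference of the 45 genes from their WT means was 0.30, and 36 of the 45 had their highest value of all 14 libraries there, as did 18.6% of all genes. It was 0.16, 0.08 and 0.10 in double KO libraries 2 to 4. In *Atg16l1* KO organoids, libraries 1 and 2 were at 0.14 and 0.15, while libraries 3 and 4 were at -0.02 and -0.01. Both *Rnaseh2b* KO libraries were above WT, at 0.16 and 0.08. The *Atg16l1* KO means therefore average a pair of libraries above WT with a pair near it.

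**Figure D1:**
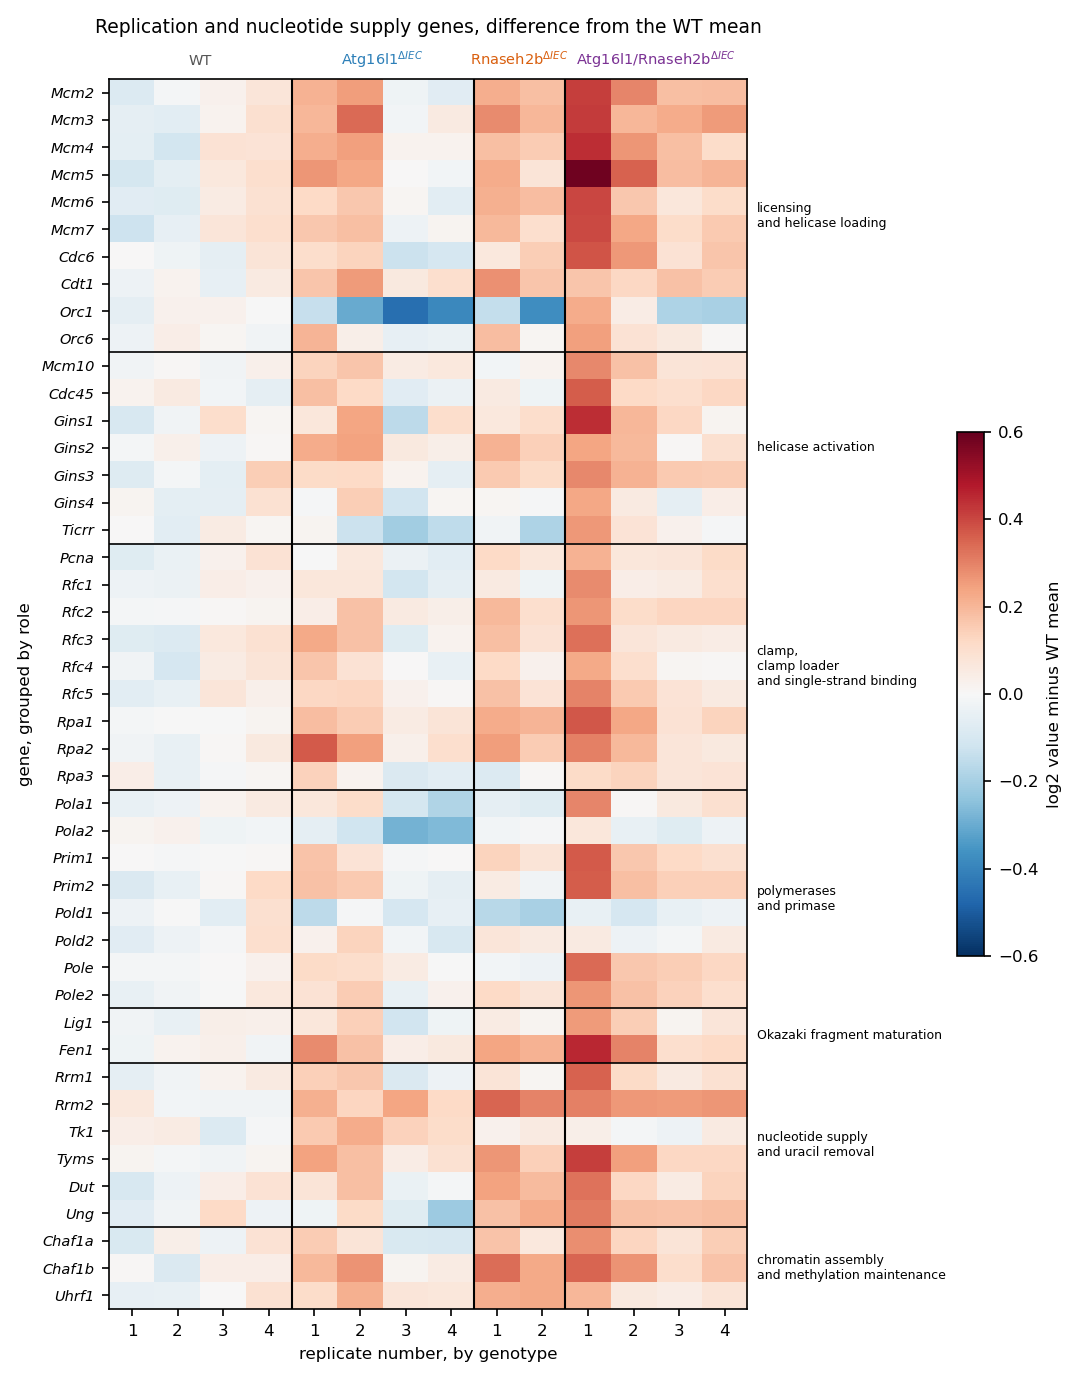
Log2 expression of the 45 genes minus their WT mean in each of the 14 libraries, with genes grouped by role and libraries by genotype. Most genes are highest in double KO library 1, and in *Atg16l1* KO organoids libraries 1 and 2 differ from libraries 3 and 4.

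The count in double KO organoids depended on which libraries were in the fit. It was 2 without WT library 1, 3 without WT library 2, 10 without WT library 3, 3 without double KO library 1 and 6 without double KO library 2. It was 17 without WT library 4, 15 without double KO library 3 and 18 without double KO library 4. Of all genes 7.82% to 16.2% passed in these fits. *Rrm2* and *Pole* rose whichever library was left out. With only WT and double KO libraries in the fit 9 passed (*Cdt1*, *Chaf1b*, *Mcm2*, *Mcm3*, *Mcm5*, *Pole*, *Rfc2*, *Rrm2* and *Ung*), beside 9.84% of all genes. With no filter on low values 11 did (*Cdt1*, *Gins3*, *Mcm2*, *Mcm3*, *Mcm5*, *Pole*, *Pole2*, *Rfc2*, *Rpa1*, *Rrm2* and *Tyms*), beside 8.91% of all genes. In the genotypes with 4 libraries, 1 and 2 resembled each other, as did 3 and 4. Both *Rnaseh2b* KO libraries were also fitted as a pair, but without other libraries of that genotype their likeness cannot be judged. In the fit with correlated pairs, which left no call in double KO organoids, 1 gene, *Rrm2*, passed in *Rnaseh2b* KO organoids (5.69% of all genes) and 0 passed in *Atg16l1* KO organoids (3.0% of all genes, with 4 of the 45 at an unadjusted p under 0.05). In that fit none of the 45 passed between double KO and *Rnaseh2b* KO, double KO and *Atg16l1* KO, or *Rnaseh2b* KO and *Atg16l1* KO, or in the interaction (limma, 1, 5, 0 and 3 at an unadjusted p under 0.05), where 5.41%, 3.73%, 0.476% and 12.1% of all genes passed at the adjusted threshold. Shares of all genes at an unadjusted p are not given for the fit with correlated pairs.

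Sequencing lane, as the library names give it, ran along the genotypes: WT was in lane 1, *Atg16l1* KO and *Rnaseh2b* KO in lane 2, and double KO libraries 1 and 2 in lane 2 with 3 and 4 in lane 1. Within lane 1, 8 genes rose in the 2 double KO libraries against WT, namely *Cdt1*, *Mcm2*, *Mcm3*, *Pole*, *Rfc2*, *Rpa1*, *Rrm2* and *Tyms*, and 10.2% of all genes passed in that fit. With lane as a covariate, which only the double KO libraries can estimate, 1 gene rose in double KO (*Rrm2*; 11.1% of all genes passed), 1 fell in *Atg16l1* KO (*Orc1*; 12.4% of all genes), and in *Rnaseh2b* KO organoids *Rrm2* rose and *Orc1* fell (11.7% of all genes). Within the double KO group lane and the pairs of libraries cannot be told apart.

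Markers of differentiated and stem cells also differed between the libraries. The summed log2 level of 11 enterocyte markers, of which *Sis* was the most abundant, was 17.67, 17.49, 17.12 and 17.08 in WT, 17.27, 17.14, 17.87 and 17.65 in *Atg16l1* KO, 18.11 and 18.25 in *Rnaseh2b* KO, and 17.005, 17.35, 16.91 and 16.98 in double KO libraries. Of these markers 10 rose in *Rnaseh2b* KO organoids against WT, 1 rose in *Atg16l1* KO, and 1 rose and 2 fell in double KO organoids. The summed level of 10 stem cell markers, led by *Slc12a2*, was 15.58, 15.60, 15.46 and 15.50 in WT, 15.17, 15.17, 14.91 and 14.95 in *Atg16l1* KO, 15.28 and 15.21 in *Rnaseh2b* KO, and 15.66, 15.40, 15.42 and 15.40 in double KO libraries. Of these 2 fell in *Rnaseh2b* KO, 7 in *Atg16l1* KO and 1 in double KO organoids. Of all genes 14.4% rose and 12.3% fell in *Rnaseh2b* KO, 8.73% and 10.4% in *Atg16l1* KO, and 8.1% and 8.01% in double KO organoids. Stem cell marker sums were thus lowest in the *Atg16l1* KO libraries and enterocyte sums highest in the *Rnaseh2b* KO libraries.

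The summed level of 7 goblet cell markers, led by *Fcgbp*, was 15.92, 15.92, 16.42 and 16.41 in WT, 15.75, 15.72, 15.44 and 15.67 in *Atg16l1* KO, 15.68 and 15.53 in *Rnaseh2b* KO, and 16.61, 16.49, 16.44 and 16.34 in double KO libraries. WT libraries alone ran from 15.92 to 16.42. Of these markers 3 fell in *Rnaseh2b* KO, 5 in *Atg16l1* KO and 1 in double KO organoids. Of all genes 12.3%, 10.4% and 8.01% fell in these. The sum over 9 Paneth cell markers, led by *Itln1*, was 15.01, 14.97, 15.09 and 15.08 in WT, 15.03, 15.12, 14.46 and 14.53 in *Atg16l1* KO, 14.99 and 14.74 in *Rnaseh2b* KO, and 15.87, 15.52, 15.57 and 15.47 in double KO libraries. Of the Paneth cell markers 4 rose in double KO organoids (8.1% of all genes), and 0 passed in *Rnaseh2b* KO (limma, 0 at an unadjusted p under 0.05) or *Atg16l1* KO organoids (2 at an unadjusted p under 0.05). The double KO libraries held the highest Paneth sums. Of 5 tuft cell markers 3 fell in *Rnaseh2b* KO, and 0 passed in *Atg16l1* KO or double KO organoids (limma, 2 and 1 at an unadjusted p under 0.05). Of 7 enteroendocrine markers 1 fell in *Atg16l1* KO, and 0 passed in *Rnaseh2b* KO or double KO organoids (limma, 5 and 3 at an unadjusted p under 0.05). The sum of 12 genes of G2 and mitosis, led by *Mki67*, was 14.93, 14.90, 14.89 and 14.91 in WT, 14.996, 14.93, 14.85 and 14.90 in *Atg16l1* KO, 14.82 and 14.81 in *Rnaseh2b* KO, and 15.01, 14.89, 14.88 and 14.91 in double KO libraries, and it was lowest in the *Rnaseh2b* KO libraries. What part these cell types have in the values of the replication genes was not tested.

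In *Rnaseh2b* KO organoids the count of 7 genes became 1 without *Rnaseh2b* KO library 1 and 2 without *Rnaseh2b* KO library 2, and it was 6 or 7 without any single WT library. Leaving out 1 *Rnaseh2b* KO library leaves the other alone, and it is assumed to vary as the other groups do. *Rrm2* rose in all these fits, in which 8.87% to 25.7% of all genes passed. With only WT and *Rnaseh2b* KO libraries in the fit 18 genes passed, of which 16 rose and 2 fell, and 31.7% of all genes did. In fits of this kind the raw count was thus larger in *Rnaseh2b* KO than in double KO organoids, the reverse of the order with all libraries. The share of all genes was larger in *Rnaseh2b* KO too, at 31.7% against 9.84%, so the raw counts alone do not rank the genotypes. In *Atg16l1* KO organoids the count of 5 genes became 2 without WT library 2, and 3 without WT library 3, *Atg16l1* KO library 2 or *Atg16l1* KO library 4. *Rrm2* and *Tk1* rose in all of them, in which 13% to 19.3% of all genes passed. With only WT and *Atg16l1* KO libraries 5 passed (18.6% of all genes), with *Rpa1* in place of *Cdt1*.

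Between double KO and *Rnaseh2b* KO organoids, 1 of the 45 genes rose (*Pole*) and 0 fell, where 11.1% and 14.4% of all genes did, and 7 of the 45 had an unadjusted p under 0.05 in limma (38.7% of all genes). The median was 0.04 over the 45 genes and 0.00 over all genes. No gene passed without *Rnaseh2b* KO library 1 or 2 (limma, 3 at an unadjusted p under 0.05 in each), and 2 passed without double KO library 1, 3 or 4. Of all genes 5.91% to 25.7% passed when a library was left out. None passed with only these groups in the fit (limma, 5 at an unadjusted p under 0.05), where 19.2% of all genes passed at the adjusted threshold. Within lane 2, which held both groups, 3 genes rose, *Mcm10*, *Orc1* and *Pole*, and 21.0% of all genes passed. With lane as a covariate and with total scaling 5 rose, where 27.1% and 28.8% of all genes passed.

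Between double KO and *Atg16l1* KO organoids 7 genes rose and 1 fell, beside 12.6% and 12.5% of all genes, with a median of 0.11 against 0.00. Those that rose were *Cdc6*, *Orc1*, *Pcna*, *Pola2*, *Rrm2*, *Ung* and *Ticrr*, and *Tk1* fell. The count of 8 became 3 without *Atg16l1* KO library 3, 2 without *Atg16l1* KO library 4, 2 without double KO library 1 and 4 without double KO library 2, and *Tk1* and *Ung* passed in every one of these fits. Of all genes 14.3% to 27.1% passed in fits without a library. With only these groups in the fit 2 passed, *Tk1* and *Ung* (16.1% of all genes), and with no filter 4, these and *Pola2* and *Ticrr* (15.4% of all genes). Within lane 2 the count was 10, where 24.4% of all genes passed, and with lane as a covariate it was 21, where 31.1% did.

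Between *Rnaseh2b* KO and *Atg16l1* KO organoids, both in lane 2, 1 gene rose (*Rrm2*) and 0 fell, where 4.34% and 2.47% of all genes did, with 4 of the 45 at an unadjusted p under 0.05 in limma (22.8% of all genes). The median was 0.05 against 0.00. No gene passed without *Atg16l1* KO library 4, *Rnaseh2b* KO library 1 or *Rnaseh2b* KO library 2 (limma, 4, 3 and 2 at an unadjusted p under 0.05), and 2 passed without *Atg16l1* KO library 1. Of all genes 0.703% to 6.98% passed when a library was left out. None passed with only these groups in the fit or with no filter (limma, 6 and 4 at an unadjusted p under 0.05), where 6.51% and 4.15% of all genes passed at the adjusted threshold.

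The interaction is the step from *Atg16l1* KO to double KO less the step from WT to *Rnaseh2b* KO. Both targets were less reduced in double KO, with mean *Rnaseh2b* at 7.81 against 7.18 in *Rnaseh2b* KO and *Atg16l1* at 8.39 against 6.92 in *Atg16l1* KO, so the steps differ in more than background. The interaction was above 0 for 3 genes (*Orc1*, *Pold1* and *Ticrr*) and below 0 for 4 (*Cdt1*, *Rrm2*, *Tk1* and *Uhrf1*), where 17% and 18.1% of all genes passed. With each library scaled to the same total the split was 5 above and 1 below, beside 22.9% and 13.9% of all genes. The count of 7 became 3 without *Rnaseh2b* KO library 1 and 2 without *Rnaseh2b* KO library 2. Between 21.1% and 36.8% of all genes passed when a library was left out. With lane as a covariate 4 genes passed, all above 0, namely *Mcm10*, *Orc1*, *Pole* and *Ticrr*, and 20.2% of all genes passed. *Rrm2* passed whichever library was left out.

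The MCM helicase is the ring that unwinds the parental strands. Of 10 genes for licensing and helicase loading, 6 rose in double KO organoids against WT, where 8.1% of all genes did (*Mcm2*, *Mcm3*, *Mcm4*, *Mcm5*, *Mcm7* and *Cdt1*), with a median of 0.22. None of the 6 passed with correlated pairs. *Mcm5* (ENSMUSG00000005410, chromosome 8 of GRCm38 from 75109569 to 75128439) was at 11.13, 11.17, 11.30 and 11.34 in WT, 11.50, 11.47, 11.24 and 11.22 in *Atg16l1* KO, 11.46 and 11.31 in *Rnaseh2b* KO, and 11.82, 11.59, 11.42 and 11.44 in double KO libraries. All double KO libraries lay above all WT libraries, with library 1 well apart, whereas the single knockouts overlapped WT. Its log2 fold change was 0.33 (SE 0.09, limma adjusted p = 0.027) in double KO against 0.15 (95% confidence interval -0.09 to 0.39, limma adjusted p = 0.34) in *Rnaseh2b* KO organoids. It did not pass without WT library 1 (0.30) or 2 (0.31) or double KO library 1 (0.25) or 2 (0.32), and within lane 1 it was 0.19 and did not pass. In double KO *Mcm5* was 0.18 against *Rnaseh2b* KO and 0.21 against *Atg16l1* KO (limma adjusted p = 0.25 and 0.1). Leaving out single libraries gave 0.10 to 0.26 and 0.13 to 0.26. Within lane 2 the values were 0.32, which did not pass, and 0.35, which did.

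*Mcm2* was at 11.01, 11.08, 11.12 and 11.16 in WT, 11.30, 11.34, 11.07 and 11.02 in *Atg16l1* KO, 11.31 and 11.28 in *Rnaseh2b* KO, and 11.51, 11.39, 11.27 and 11.28 in double KO libraries. Its double KO and *Rnaseh2b* KO libraries all exceeded WT, and *Atg16l1* KO libraries 1 and 2 did so while 3 and 4 sat among WT. The log2 fold change was 0.27 (SE 0.07, limma adjusted p = 0.026) in double KO, 0.20 (limma adjusted p = 0.11) in *Rnaseh2b* KO and 0.09 (limma adjusted p = 0.4) in *Atg16l1* KO organoids. With a lane term it was 0.03 in *Rnaseh2b* KO, and with single libraries left out 0.04 to 0.14 in *Atg16l1* KO organoids. *Mcm3* was at 11.15, 11.14, 11.22 and 11.30 in WT, 11.40, 11.54, 11.19 and 11.26 in *Atg16l1* KO, 11.49 and 11.40 in *Rnaseh2b* KO, and 11.62, 11.40, 11.43 and 11.46 in double KO libraries. Both *Rnaseh2b* KO and all double KO libraries were above WT, and *Atg16l1* KO libraries again split by pair. It rose by 0.27 (SE 0.07, limma adjusted p = 0.023) in double KO organoids and was at 0.24 (limma adjusted p = 0.057) in *Rnaseh2b* KO. *Mcm2* did not pass in double KO organoids without WT library 1 (0.24) or 2 (0.26) or double KO library 1 (0.22) or 2 (0.26), nor *Mcm3* without WT library 1 (0.26) or 2 (0.25) or double KO library 1 (0.22). Within lane 1 the values were 0.18 for *Mcm2* and 0.24 for *Mcm3*, and both passed.

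*Mcm4* was at 10.77, 10.71, 10.91 and 10.91 in WT, 11.04, 11.07, 10.84 and 10.85 in *Atg16l1* KO, 11.01 and 10.98 in *Rnaseh2b* KO, and 11.27, 11.09, 11.004 and 10.94 in double KO libraries. Here too double KO libraries were all above WT, though library 4 exceeded the highest WT library only slightly. It rose by 0.25 (SE 0.07, limma adjusted p = 0.039), and did not pass without WT library 1 (0.23) or 2 (0.21) or double KO library 1 (0.18) or 2 (0.24). *Mcm7* rose by 0.22 (limma adjusted p = 0.044), and did not pass without WT library 1 (0.18), 2 (0.21) or 3 (0.25) or double KO library 1 (0.17) or 2 (0.22). Within lane 1 *Mcm4* was 0.15 and *Mcm7* 0.13, and neither passed. *Mcm6*, which completes the ring, had 0.18 (limma adjusted p = 0.086) in double KO and 0.20 (limma adjusted p = 0.099) in *Rnaseh2b* KO organoids. No MCM ring gene passed in either single knockout or in the interaction.

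The loading factors had patterns of their own. *Cdt1*, whose protein brings the helicase to the origin and is destroyed in S phase, was at 10.19, 10.25, 10.17 and 10.28 in WT, 10.39, 10.48, 10.28 and 10.32 in *Atg16l1* KO, 10.49 and 10.39 in *Rnaseh2b* KO, and 10.39, 10.35, 10.40 and 10.38 in double KO libraries. All knockout libraries were above the highest WT library, *Atg16l1* KO library 3 only barely. Its log2 fold change was 0.22 (SE 0.05, limma adjusted p = 0.0081) in *Rnaseh2b* KO, 0.14 (SE 0.04, limma adjusted p = 0.03) in *Atg16l1* KO and 0.15 (SE 0.04, limma adjusted p = 0.028) in double KO organoids, and its interaction was -0.21 (SE 0.07, limma adjusted p = 0.027), so the double knockout lay below the sum of the single ones. It did not pass in *Rnaseh2b* KO organoids without *Rnaseh2b* KO library 1 (0.17). In *Atg16l1* KO organoids it did not pass without WT library 1 (0.13), 2 (0.15) or 3 (0.13) or *Atg16l1* KO library 1 (0.14) or 2 (0.11), and in double KO organoids not without WT library 1 (0.14), 2 (0.16) or 3 (0.14) or double KO library 1 (0.15) or 3 (0.15). The interaction did not pass without WT library 3 (-0.19) or *Rnaseh2b* KO library 1 (-0.16). None of these 4 passed with a lane term, and with total scaling neither the rise in *Atg16l1* KO (0.14) nor the interaction (-0.15) did.

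*Orc1*, the subunit of the origin complex that leaves the chromatin after S phase begins, was low in both single knockouts. *Orc1* (ENSMUSG00000028587, chromosome 4 of GRCm38 from 108579423 to 108614833) was at 8.15, 8.23, 8.22 and 8.20 in WT, 8.06, 7.90, 7.75 and 7.81 in *Atg16l1* KO, 8.05 and 7.83 in *Rnaseh2b* KO, and 8.42, 8.24, 8.01 and 8.01 in double KO libraries. Every *Atg16l1* KO and *Rnaseh2b* KO library was below every WT library, while double KO libraries 1 and 2 were above all WT libraries and 3 and 4 below them. It fell by 0.32 (SE 0.09, limma adjusted p = 0.031) in *Atg16l1* KO organoids and was at -0.26 (95% confidence interval -0.51 to -0.01, limma adjusted p = 0.11) in *Rnaseh2b* KO and -0.03 (95% confidence interval -0.23 to 0.18, limma adjusted p = 0.87) in double KO organoids. Leaving out single libraries moved *Orc1* in *Rnaseh2b* KO between -0.37 and -0.14. Against *Atg16l1* KO organoids it rose in double KO by 0.29 (SE 0.09, limma adjusted p = 0.038), and the interaction was 0.55 (SE 0.15, limma adjusted p = 0.012), the largest among the 45 genes. The fall in *Atg16l1* KO did not pass without WT library 2 (-0.31), 3 (-0.31) or 4 (-0.32) or *Atg16l1* KO library 2 (-0.33), 3 (-0.28) or 4 (-0.30). The rise from *Atg16l1* KO to double KO did not pass without *Atg16l1* KO library 2 (0.30), 3 (0.25) or 4 (0.27) or double KO library 1 (0.21) or 2 (0.27), and the interaction not without *Rnaseh2b* KO library 2 (0.44).

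For *Orc1*, double KO libraries 1 and 2, in lane 2, were above libraries 3 and 4, in lane 1. Lane and pair cannot be told apart there, and a lane term rests on these libraries alone. With lane as a covariate the log2 fold change of *Orc1* was -0.58 in *Rnaseh2b* KO and -0.64 in *Atg16l1* KO organoids, both past the threshold, and the interaction was 1.04. Within lane 2 it was 0.39 between double KO and *Rnaseh2b* KO and 0.45 between double KO and *Atg16l1* KO organoids. *Cdc6*, the ATPase that works with ORC, was at 8.76, 8.73, 8.70 and 8.83 in WT, 8.86, 8.89, 8.63 and 8.66 in *Atg16l1* KO, 8.82 and 8.91 in *Rnaseh2b* KO, and 9.13, 9.02, 8.84 and 8.92 in double KO libraries. Its double KO libraries were all above WT, with *Atg16l1* KO libraries on both sides. It rose by 0.22 (SE 0.07, limma adjusted p = 0.041) between *Atg16l1* KO and double KO organoids and was at 0.22 (limma adjusted p = 0.051) against WT. The call from *Atg16l1* KO to double KO was lost without *Atg16l1* KO library 3 (0.18) or 4 (0.19) or double KO library 1 (0.17), 2 (0.21) or 4 (0.24). *Orc6*, another origin subunit, stayed within 0.10 of WT in all genotypes.

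**Figure D2:**
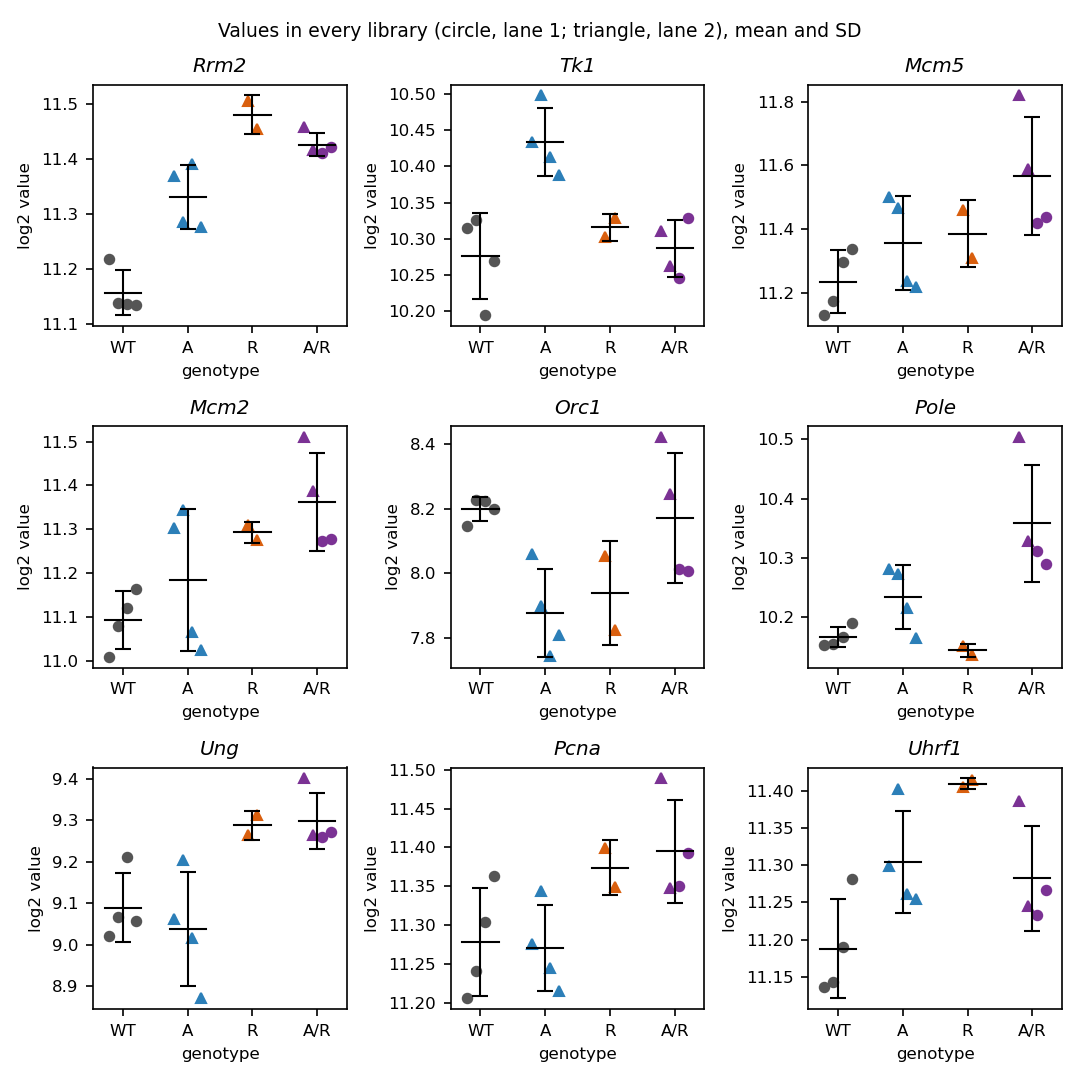
Log2 expression in each library for 9 of the genes, with circles for lane 1, triangles for lane 2, and mean and SD per genotype (A for *Atg16l1* KO, R for *Rnaseh2b* KO, A/R for double KO). *Rrm2* is above WT in every knockout library, whereas *Tk1* is above WT in every *Atg16l1* KO library and overlaps WT in the other knockouts.

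Of 7 genes that turn the loaded ring into a moving fork, 2 rose in double KO organoids against WT (*Gins3* and *Mcm10*; 8.1% of all genes) and 0 passed in *Rnaseh2b* KO or *Atg16l1* KO (limma, 1 and 2 at an unadjusted p under 0.05). Neither *Gins3* nor *Mcm10* passed with correlated pairs. *Gins3*, a subunit of the GINS complex, was at 7.08, 7.15, 7.10 and 7.31 in WT, 7.27, 7.28, 7.18 and 7.10 in *Atg16l1* KO, 7.32 and 7.27 in *Rnaseh2b* KO, and 7.44, 7.36, 7.32 and 7.31 in double KO libraries. All double KO libraries were above all WT libraries, though WT library 4 lay well above the other WT libraries and just under double KO libraries 3 and 4. It rose by 0.20 (SE 0.06, limma adjusted p = 0.04), and did not pass without WT library 1 (0.17), 2 (0.20) or 3 (0.18) or double KO library 1 (0.17), 2 (0.20) or 3 (0.22). *Mcm10*, which helps the helicase start, rose by 0.16 (limma adjusted p = 0.035), and not without WT library 1 (0.15), 2 (0.16) or 3 (0.15) or double KO library 1 (0.11) or 2 (0.15). Within lane 1 these were 0.16 and 0.08 and did not pass. *Cdc45*, *Gins1*, *Gins2* and *Gins4* were between 0.07 and 0.20 in double KO organoids with none past the threshold.

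*Ticrr* encodes treslin, which carries activating factors to the origin. It was at 9.65, 9.59, 9.70 and 9.66 in WT, 9.67, 9.52, 9.44 and 9.50 in *Atg16l1* KO, 9.63 and 9.46 in *Rnaseh2b* KO, and 9.91, 9.73, 9.68 and 9.64 in double KO libraries. The double KO libraries overlapped WT, and the lowest values were in *Atg16l1* KO libraries 3 and 4 and *Rnaseh2b* KO library 2. No comparison with WT passed, with -0.10 (95% confidence interval -0.27 to 0.06, limma adjusted p = 0.34) in *Rnaseh2b* KO, -0.12 (95% confidence interval -0.25 to 0.02, limma adjusted p = 0.21) in *Atg16l1* KO and 0.09 (95% confidence interval -0.05 to 0.23, limma adjusted p = 0.34) in double KO organoids. It rose from *Atg16l1* KO to double KO organoids by 0.21 (SE 0.06, limma adjusted p = 0.03), and the interaction was 0.31 (SE 0.10, limma adjusted p = 0.028). The rise from *Atg16l1* KO did not pass without *Atg16l1* KO library 2 (0.20), 3 (0.18) or 4 (0.20) or double KO library 1 (0.15) or 2 (0.21). The interaction did not pass without WT library 3 (0.30) or *Atg16l1* KO library 3 (0.28) or 4 (0.30) or *Rnaseh2b* KO library 2 (0.23), and was 0.55 with lane as a covariate.

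Of 9 genes of the clamp, its loader and single-strand binding, 2 rose in double KO (*Rpa1* and *Rfc2*; 8.1% of all genes), the same 2 in *Rnaseh2b* KO organoids (14.4% of all genes), and 0 passed in *Atg16l1* KO (limma, 2 at an unadjusted p under 0.05). None of these calls passed with correlated pairs. *Rpa1*, the large subunit that binds single strands, was at 11.07, 11.08, 11.07 and 11.09 in WT, 11.26, 11.23, 11.13 and 11.15 in *Atg16l1* KO, 11.30 and 11.28 in *Rnaseh2b* KO, and 11.45, 11.31, 11.16 and 11.21 in double KO libraries. WT libraries were close together and every knockout library was above them, *Atg16l1* KO libraries 3 and 4 by the least. It rose by 0.21 (SE 0.06, limma adjusted p = 0.024) in *Rnaseh2b* KO and 0.21 (SE 0.05, limma adjusted p = 0.019) in double KO organoids, and was at 0.12 (limma adjusted p = 0.13) in *Atg16l1* KO. In *Rnaseh2b* KO it did not pass without *Rnaseh2b* KO library 1 (0.21) or 2 (0.22), nor in double KO without WT library 1 (0.20). Within lane 1 it was 0.11 in double KO and passed, and with lane as a covariate it was 0.02 in *Rnaseh2b* KO organoids and did not pass, nor did it there with total scaling (0.18).

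*Rpa2*, the middle subunit of the same trimer, was at 9.95, 9.92, 9.98 and 10.03 in WT, 10.34, 10.22, 10.0002 and 10.07 in *Atg16l1* KO, 10.22 and 10.12 in *Rnaseh2b* KO, and 10.27, 10.16, 10.04 and 10.03 in double KO libraries. Libraries 1 and 2 of each knockout, all in lane 2, were the high ones. Libraries 3 and 4 of *Atg16l1* KO organoids, also in lane 2, and of double KO organoids, in lane 1, were close to WT. It did not pass anywhere, with 0.19 (95% confidence interval 0.03 to 0.34, limma adjusted p = 0.08) in *Atg16l1* KO, 0.20 (95% confidence interval 0.02 to 0.39, limma adjusted p = 0.099) in *Rnaseh2b* KO and 0.16 (95% confidence interval 0.01 to 0.31, limma adjusted p = 0.14) in double KO organoids, and with lane as a covariate the value in *Atg16l1* KO was 0.00. Its interaction was -0.23 (limma adjusted p = 0.12), and 0.05 with that covariate. *Rpa3*, the small subunit, stayed between -0.04 and 0.10 in all genotypes.

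*Pcna*, the sliding clamp, was at 11.21, 11.24, 11.30 and 11.36 in WT, 11.28, 11.34, 11.24 and 11.21 in *Atg16l1* KO, 11.40 and 11.35 in *Rnaseh2b* KO, and 11.49, 11.35, 11.35 and 11.39 in double KO libraries. The groups overlapped, although all double KO libraries exceeded all *Atg16l1* KO libraries. Against WT it was at 0.12 (95% confidence interval 0.02 to 0.21, limma adjusted p = 0.078) in double KO, 0.10 (95% confidence interval -0.02 to 0.21, limma adjusted p = 0.19) in *Rnaseh2b* KO and -0.01 (95% confidence interval -0.10 to 0.08, limma adjusted p = 0.91) in *Atg16l1* KO organoids. It rose from *Atg16l1* KO to double KO by 0.12 (SE 0.04, limma adjusted p = 0.047), a call lost without *Atg16l1* KO library 1 (0.13), 3 (0.12) or 4 (0.11) or double KO library 1 (0.09), 3 (0.14) or 4 (0.13) and within lane 2 (0.15). Of the clamp loader, *Rfc2* rose by 0.15 (limma adjusted p = 0.049) in *Rnaseh2b* KO and 0.16 (limma adjusted p = 0.024) in double KO organoids. In *Rnaseh2b* KO organoids the *Rfc2* call was lost in every fit that left out a library, without WT library 1 (0.14), 2 (0.14), 3 (0.15) or 4 (0.15) or *Rnaseh2b* KO library 1 (0.10) or 2 (0.19), and in double KO without WT library 1 (0.15) or 2 (0.15) or double KO library 1 (0.12). *Rfc2* with a lane term was 0.09 in *Rnaseh2b* KO, with total scaling 0.11, and it did not pass in either. *Rfc1*, *Rfc3*, *Rfc4* and *Rfc5* were between 0.09 and 0.15 in double KO organoids, none past the threshold.

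Of 8 polymerase and primase genes, 3 rose in double KO (*Pole*, *Pole2* and *Prim1*), 1 fell in *Rnaseh2b* KO (*Pold1*) and 1 fell in *Atg16l1* KO organoids (*Pola2*), where 8.1%, 12.3% and 10.4% of all genes did. None of these calls passed with correlated pairs. *Pole* (ENSMUSG00000007080, chromosome 5 of GRCm38 from 110286306 to 110337474), the catalytic subunit of the leading strand polymerase, was at 10.15, 10.15, 10.17 and 10.19 in WT, 10.28, 10.27, 10.21 and 10.17 in *Atg16l1* KO, 10.15 and 10.14 in *Rnaseh2b* KO, and 10.50, 10.33, 10.31 and 10.29 in double KO libraries. Every double KO library was above every library of the other genotypes, and *Rnaseh2b* KO libraries sat just under WT. It rose in double KO organoids by 0.19 (SE 0.04, limma adjusted p = 0.013) against WT and 0.21 (SE 0.05, limma adjusted p = 0.012) against *Rnaseh2b* KO organoids, and was at 0.12 (limma adjusted p = 0.053) against *Atg16l1* KO. The rise against WT passed whichever library was left out, from 0.14 to 0.22, and was 0.13 and past the threshold within lane 1. Against *Rnaseh2b* KO organoids it did not pass without *Rnaseh2b* KO library 1 (0.22) or 2 (0.21), and within lane 2 it was 0.27 and passed.

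*Pold1*, the catalytic subunit of the lagging strand polymerase, was at 10.75, 10.78, 10.72 and 10.88 in WT, 10.62, 10.77, 10.68 and 10.73 in *Atg16l1* KO, 10.62 and 10.59 in *Rnaseh2b* KO, and 10.73, 10.68, 10.74 and 10.75 in double KO libraries. Both *Rnaseh2b* KO libraries were below all WT libraries, and the other groups overlapped WT. It fell by 0.18 (SE 0.05, limma adjusted p = 0.016) in *Rnaseh2b* KO organoids, was at -0.08 (95% confidence interval -0.16 to 0.01, limma adjusted p = 0.17) in *Atg16l1* KO and -0.05 (95% confidence interval -0.14 to 0.03, limma adjusted p = 0.36) in double KO, and had an interaction of 0.20 (SE 0.06, limma adjusted p = 0.022). The fall did not pass without *Rnaseh2b* KO library 1 (-0.19) or 2 (-0.16), nor the interaction without *Rnaseh2b* KO library 1 (0.22) or 2 (0.19). They were, with a lane term, -0.14 and 0.15 and did not pass. Its partner *Pold2* was within 0.06 of WT in all genotypes.

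*Pola2*, the accessory subunit of polymerase alpha, was at 10.48, 10.49, 10.44 and 10.45 in WT, 10.41, 10.34, 10.18 and 10.20 in *Atg16l1* KO, 10.45 and 10.46 in *Rnaseh2b* KO, and 10.53, 10.42, 10.39 and 10.43 in double KO libraries. All *Atg16l1* KO libraries were below all WT libraries, libraries 3 and 4 by far the most, while *Rnaseh2b* KO libraries lay among WT and double KO libraries on both sides of it. It fell by 0.18 (SE 0.05, limma adjusted p = 0.02) in *Atg16l1* KO organoids and rose from *Atg16l1* KO to double KO by 0.16 (SE 0.05, limma adjusted p = 0.03). The fall did not pass without WT library 2 (-0.17) or *Atg16l1* KO library 3 (-0.15) or 4 (-0.15), nor the rise without *Atg16l1* KO library 3 (0.13) or 4 (0.13) or double KO library 1 (0.13). The fall with a lane term was -0.25, within lane 2 the rise was 0.19, and neither passed. *Pola1*, the catalytic subunit, was at -0.06 (limma adjusted p = 0.61) in *Rnaseh2b* KO, -0.03 (limma adjusted p = 0.81) in *Atg16l1* KO and 0.11 (limma adjusted p = 0.27) in double KO organoids.

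*Prim2*, the large primase subunit, was at 8.85, 8.89, 8.94 and 9.05 in WT, 9.11, 9.09, 8.91 and 8.88 in *Atg16l1* KO, 8.98 and 8.91 in *Rnaseh2b* KO, and 9.29, 9.12, 9.07 and 9.08 in double KO libraries. All double KO libraries exceeded all WT and *Rnaseh2b* KO libraries, while *Atg16l1* KO libraries split by pair. It had 0.21 (95% confidence interval 0.06 to 0.35, limma adjusted p = 0.054) against WT and 0.19 (95% confidence interval 0.01 to 0.37, limma adjusted p = 0.1) against *Rnaseh2b* KO organoids, and neither passed. *Prim1*, the catalytic primase subunit, rose in double KO by 0.19 (limma adjusted p = 0.038) and *Pole2* by 0.17 (limma adjusted p = 0.043). The *Prim1* call was lost without WT library 1 (0.19), 2 (0.18), 3 (0.19) or 4 (0.19) or double KO library 1 (0.13) or 2 (0.19), and the *Pole2* call without WT library 1 (0.16), 2 (0.16) or 3 (0.17) or double KO library 1 (0.14), 2 (0.17) or 3 (0.18). Within lane 1 they were 0.11 and 0.12 and did not pass.

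Lagging strand joining is represented by *Fen1*, the flap nuclease, and *Lig1*, the ligase. *Fen1* was at 10.58, 10.62, 10.64 and 10.58 in WT, 10.89, 10.78, 10.64 and 10.66 in *Atg16l1* KO, 10.84 and 10.81 in *Rnaseh2b* KO, and 11.05, 10.90, 10.71 and 10.73 in double KO libraries. WT libraries were close together and every knockout library was above them, with libraries 1 and 2 of each knockout the highest and *Atg16l1* KO libraries 3 and 4 barely over WT. It rose by 0.24 (SE 0.07, limma adjusted p = 0.036) in double KO organoids and was at 0.22 (95% confidence interval 0.04 to 0.41, limma adjusted p = 0.072) in *Rnaseh2b* KO and 0.14 (95% confidence interval -0.01 to 0.29, limma adjusted p = 0.18) in *Atg16l1* KO. The call in double KO was lost without WT library 1 (0.23), 2 (0.25), 3 (0.25) or 4 (0.23) or double KO library 1 (0.17) or 2 (0.22). Within lane 1 *Fen1* was 0.11 in double KO organoids and did not pass, and with lane as a covariate it turned to -0.04 in *Rnaseh2b* KO. *Lig1* was at 0.12 (limma adjusted p = 0.15) in double KO, 0.03 (limma adjusted p = 0.78) in *Rnaseh2b* KO and 0.02 (limma adjusted p = 0.86) in *Atg16l1* KO organoids.

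Among genes of nucleotide supply, *Rrm2* rose in every knockout. Of 6 genes for making deoxynucleotides and keeping uracil out of DNA, 3 rose in double KO (*Rrm2*, *Tyms* and *Ung*), 1 in *Rnaseh2b* KO (*Rrm2*) and 2 in *Atg16l1* KO organoids (*Rrm2* and *Tk1*), where 8.1%, 14.4% and 8.73% of all genes did. Of these calls only *Rrm2* in *Rnaseh2b* KO organoids passed with correlated pairs. *Rrm2* (ENSMUSG00000020649, chromosome 12 of GRCm38 from 24708241 to 24714146), the S phase subunit of ribonucleotide reductase, was at 11.22, 11.14, 11.14 and 11.13 in WT, 11.37, 11.29, 11.39 and 11.28 in *Atg16l1* KO, 11.51 and 11.46 in *Rnaseh2b* KO, and 11.46, 11.42, 11.41 and 11.42 in double KO libraries. Every knockout library was above every WT library, the *Rnaseh2b* KO and double KO libraries more than the *Atg16l1* KO libraries, and WT library 1 stood apart from the other WT libraries. Its log2 fold change against WT was 0.32 (SE 0.04, limma adjusted p = 0.00017) in *Rnaseh2b* KO, 0.17 (SE 0.03, limma adjusted p = 0.0029) in *Atg16l1* KO and 0.27 (SE 0.03, limma adjusted p = 0.00058) in double KO organoids. The interaction was -0.23 (SE 0.05, limma adjusted p = 0.0044), below the sum of the single knockouts. Leaving out single libraries gave 0.30 to 0.35 in *Rnaseh2b* KO, 0.15 to 0.19 in *Atg16l1* KO and 0.26 to 0.29 in double KO organoids, all past the threshold. In the fit with a lane term the values were 0.30, 0.15 and 0.26, of which that in *Atg16l1* KO did not pass, and the interaction of -0.20 did not pass.

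Between the knockouts, *Rrm2* was higher in *Rnaseh2b* KO than in *Atg16l1* KO organoids by 0.15 (SE 0.04, limma adjusted p = 0.039) and higher in double KO than in *Atg16l1* KO by 0.10 (SE 0.03, limma adjusted p = 0.045), and did not differ detectably between double KO and *Rnaseh2b* KO, at -0.05 (95% confidence interval -0.14 to 0.03, limma adjusted p = 0.34). The first call was lost without *Atg16l1* KO library 2 (0.14) or 4 (0.13) or *Rnaseh2b* KO library 1 (0.13) or 2 (0.18), and with total scaling (0.12). The second was lost without *Atg16l1* KO library 2 (0.08) or 4 (0.08) or double KO library 1 (0.09), 2 (0.10), 3 (0.10) or 4 (0.10), and within lane 2 (0.11). *Rrm1*, the large subunit that pairs with it, was at 0.04 (limma adjusted p = 0.73) in *Rnaseh2b* KO, 0.05 (limma adjusted p = 0.66) in *Atg16l1* KO and 0.15 (limma adjusted p = 0.13) in double KO organoids. *Rrm2b*, the subunit that p53 induces and that replaces *Rrm2* outside S phase, was at 6.94, 6.83, 6.93 and 6.92 in WT, 6.63, 6.77, 6.79 and 6.78 in *Atg16l1* KO, 6.64 and 6.70 in *Rnaseh2b* KO, and 6.73, 6.69, 6.85 and 6.82 in double KO libraries. It was below WT in most knockout libraries, fell by 0.24 (SE 0.07, limma adjusted p = 0.018) in *Rnaseh2b* KO organoids, and had an interaction of 0.27 (SE 0.08, limma adjusted p = 0.026). The fall of *Rrm2b* did not pass without *Rnaseh2b* KO library 1 (-0.21) or 2 (-0.27), nor its interaction without *Rnaseh2b* KO library 1 (0.24) or 2 (0.30). With a lane term these were -0.11 and 0.08, and neither passed with it or with correlated pairs.

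*Tk1* (ENSMUSG00000025574, chromosome 11 of GRCm38 from 117815526 to 117826092), the thymidine kinase of the salvage pathway, was at 10.32, 10.33, 10.19 and 10.27 in WT, 10.43, 10.50, 10.41 and 10.39 in *Atg16l1* KO, 10.30 and 10.33 in *Rnaseh2b* KO, and 10.31, 10.26, 10.25 and 10.33 in double KO libraries. All *Atg16l1* KO libraries were above all libraries of the other genotypes, and the *Rnaseh2b* KO and double KO libraries overlapped WT, *Rnaseh2b* KO library 2 and double KO library 4 being barely above it. It rose by 0.16 (SE 0.04, limma adjusted p = 0.0094) in *Atg16l1* KO organoids and was at 0.04 (95% confidence interval -0.06 to 0.14, limma adjusted p = 0.54) in *Rnaseh2b* KO and 0.01 (95% confidence interval -0.07 to 0.09, limma adjusted p = 0.87) in double KO. From *Atg16l1* KO to double KO it fell by 0.15 (SE 0.04, limma adjusted p = 0.012), and the interaction was -0.19 (SE 0.06, limma adjusted p = 0.023). The rise in *Atg16l1* KO was 0.13 to 0.17 and the fall to double KO -0.16 to -0.13 with single libraries left out, all past the threshold, whereas the interaction did not pass without *Rnaseh2b* KO library 1 (-0.20) or 2 (-0.17). Within lane 2 the fall was -0.15 and passed, but it did not pass with correlated pairs. The rise in *Atg16l1* KO with a lane term was 0.16 and did not pass, nor did it with correlated pairs. The interaction did not pass with a lane term (-0.19) or with total scaling (-0.13). *Tyms*, which makes thymidylate afresh, rose by 0.23 (limma adjusted p = 0.026) in double KO organoids, and not without WT library 1 (0.23), 2 (0.22) or 3 (0.22) or double KO library 1 (0.17) or 2 (0.22). Within lane 1 it was 0.13 and passed.

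*Ung* (ENSMUSG00000029591, chromosome 5 of GRCm38 from 114130386 to 114139323), the glycosylase that takes uracil out of DNA, was at 9.02, 9.07, 9.21 and 9.06 in WT, 9.06, 9.203, 9.02 and 8.87 in *Atg16l1* KO, 9.26 and 9.31 in *Rnaseh2b* KO, and 9.40, 9.26, 9.26 and 9.27 in double KO libraries. Every *Rnaseh2b* KO and double KO library was above every WT and *Atg16l1* KO library, and double KO library 1 stood above the other 3. It rose by 0.21 (SE 0.07, limma adjusted p = 0.044) in double KO organoids against WT and by 0.26 (SE 0.07, limma adjusted p = 0.013) against *Atg16l1* KO, and was at 0.20 (95% confidence interval 0.03 to 0.37, limma adjusted p = 0.081) in *Rnaseh2b* KO and -0.05 (95% confidence interval -0.19 to 0.09, limma adjusted p = 0.61) in *Atg16l1* KO organoids. The call against WT was lost without WT library 1 (0.19), 2 (0.20) or 4 (0.20) or double KO library 1 (0.18), 2 (0.22), 3 (0.22) or 4 (0.22), and within lane 1 (0.18). That against *Atg16l1* KO passed whichever library was left out, at 0.20 to 0.32, and within lane 2 at 0.29, but not with correlated pairs. *Dut*, which destroys the dUTP that would put uracil into DNA, was at 10.50, 10.57, 10.64 and 10.68 in WT, 10.68, 10.78, 10.56 and 10.58 in *Atg16l1* KO, 10.84 and 10.79 in *Rnaseh2b* KO, and 10.93, 10.72, 10.65 and 10.73 in double KO libraries. Both *Rnaseh2b* KO libraries exceeded all WT and *Atg16l1* KO libraries, and double KO library 3 lay among WT. Its values of 0.21 (95% confidence interval 0.05 to 0.38, limma adjusted p = 0.054) in *Rnaseh2b* KO and 0.16 (95% confidence interval 0.02 to 0.29, limma adjusted p = 0.099) in double KO organoids did not pass.

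Chromatin assembly and copying of DNA methylation are served by 3 genes, of which 2 rose in *Rnaseh2b* KO and 1 in double KO organoids (14.4% and 8.1% of all genes). None of these calls passed with correlated pairs. *Chaf1b*, the middle subunit of the histone chaperone CAF-1, was at 9.55, 9.46, 9.58 and 9.59 in WT, 9.74, 9.81, 9.56 and 9.59 in *Atg16l1* KO, 9.88 and 9.77 in *Rnaseh2b* KO, and 9.90, 9.82, 9.65 and 9.72 in double KO libraries. All *Rnaseh2b* KO and double KO libraries were above WT, and so were *Atg16l1* KO libraries 1, 2 and, barely, 4, while *Atg16l1* KO library 3 lay among WT. It rose by 0.28 (SE 0.08, limma adjusted p = 0.019) in *Rnaseh2b* KO and 0.22 (SE 0.06, limma adjusted p = 0.034) in double KO organoids, and was at 0.13 (limma adjusted p = 0.17) in *Atg16l1* KO. In *Rnaseh2b* KO it did not pass without *Rnaseh2b* KO library 1 (0.23) or 2 (0.34), nor in double KO without WT library 1 (0.23) or 2 (0.20) or double KO library 1 (0.18) or 2 (0.21). It was, with a lane term, 0.11 in *Rnaseh2b* KO, within lane 1 0.14 in double KO organoids, and neither passed. Its partner *Chaf1a* was at 0.16 (limma adjusted p = 0.099) in double KO organoids.

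*Uhrf1*, which guides the maintenance methyltransferase to new DNA, was at 11.14, 11.14, 11.19 and 11.28 in WT, 11.30, 11.40, 11.26 and 11.26 in *Atg16l1* KO, 11.40 and 11.41 in *Rnaseh2b* KO, and 11.39, 11.24, 11.23 and 11.27 in double KO libraries. Both *Rnaseh2b* KO libraries were the highest of all, just over *Atg16l1* KO library 2, while *Atg16l1* KO and double KO libraries overlapped WT. It rose by 0.22 (SE 0.05, limma adjusted p = 0.0098) in *Rnaseh2b* KO organoids, was at 0.12 (95% confidence interval 0.02 to 0.21, limma adjusted p = 0.082) in *Atg16l1* KO and 0.09 (95% confidence interval 0.00 to 0.19, limma adjusted p = 0.15) in double KO, and had an interaction of -0.24 (SE 0.07, limma adjusted p = 0.017). Between double KO and *Rnaseh2b* KO organoids it was -0.13 (limma adjusted p = 0.1). The rise did not pass without *Rnaseh2b* KO library 1 (0.23) or 2 (0.22), nor the interaction without *Rnaseh2b* KO library 1 (-0.25) or 2 (-0.24). With a lane term they were 0.16 and -0.14 and neither passed, nor did the interaction with total scaling (-0.19).

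**Figure D3:**
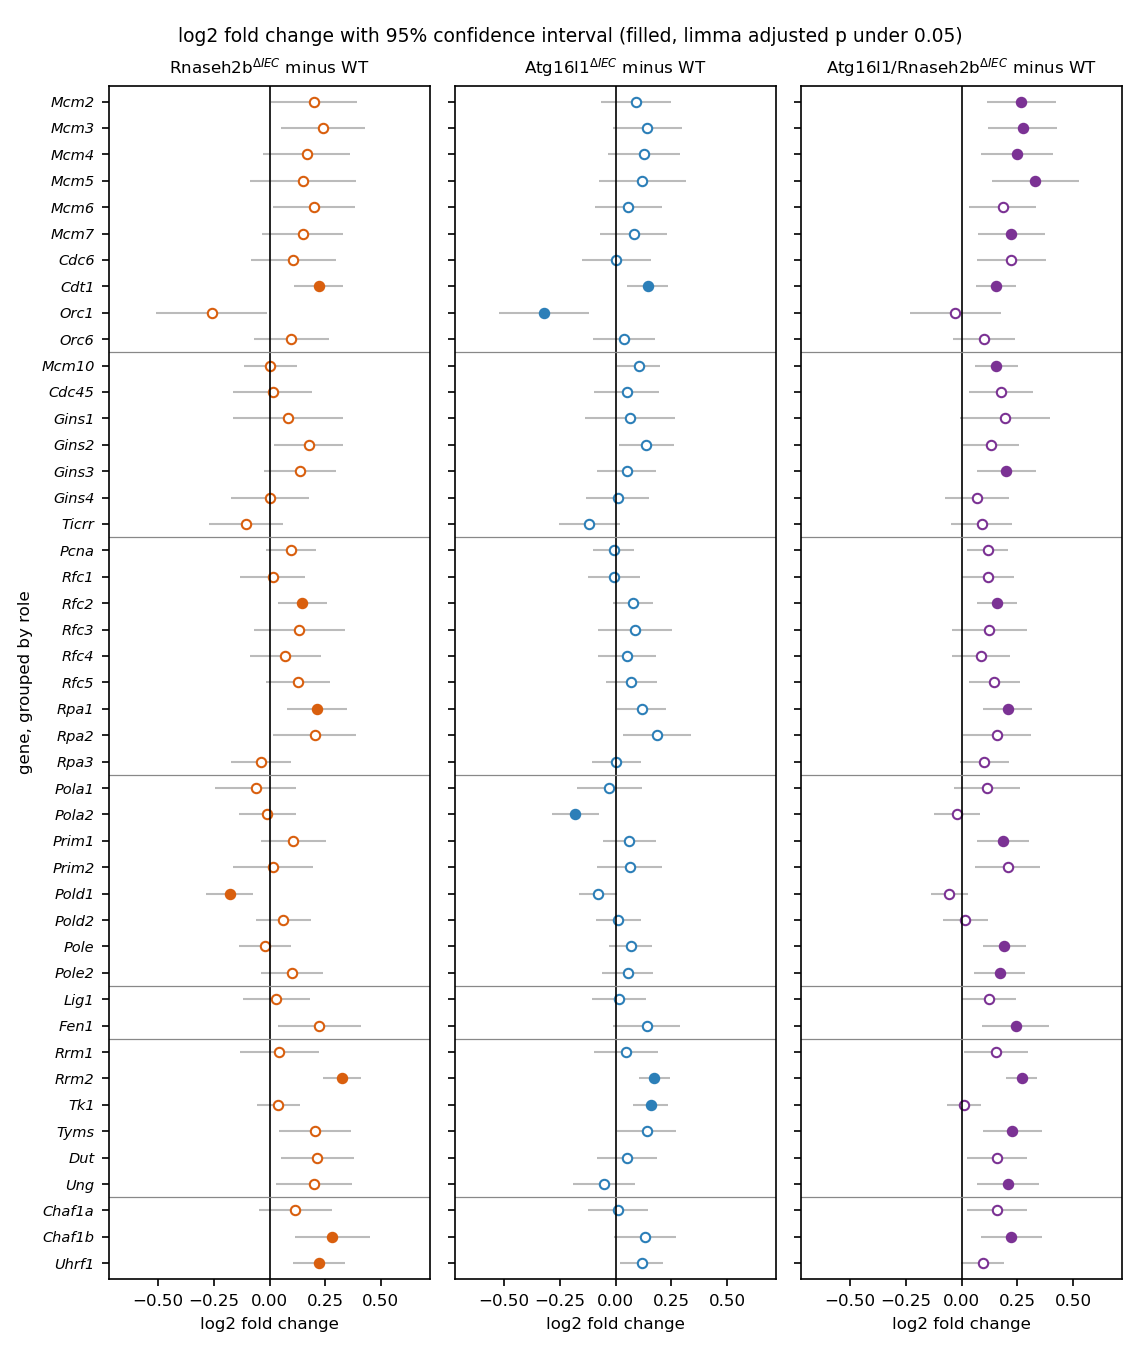
Log2 fold change against WT with its 95% confidence interval for each of the 45 genes in the 3 knockouts, filled where the limma adjusted p is under 0.05. In double KO organoids 42 of the 45 lie above 0 (49.2% of all genes), in *Rnaseh2b* KO 38 (50.6%) and in *Atg16l1* KO 37 (50.4%).

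Genes of the same processes outside the 45 were counted too. Of 40 other replication genes 4 rose in double KO organoids against WT and 0 fell (limma, 16 at an unadjusted p under 0.05, against 33.0% of all genes), with a median of 0.07. In *Rnaseh2b* KO organoids 2 rose and 2 fell, and in *Atg16l1* KO 2 rose and 4 fell, with medians of 0.01 and 0.00. Of 34 other nucleotide synthesis genes 7 rose in double KO organoids (median 0.09), 5 rose and 3 fell in *Rnaseh2b* KO (median 0.03), and 1 rose and 1 fell in *Atg16l1* KO (median 0.01). Of all genes 14.4% rose and 12.3% fell in *Rnaseh2b* KO, 8.73% and 10.4% in *Atg16l1* KO, and 8.1% and 8.01% in double KO organoids. Among them *Cad*, which starts pyrimidine synthesis, rose by 0.47 (SE 0.09, limma adjusted p = 0.0062) in double KO organoids against WT, 0.45 (limma adjusted p = 0.012) against *Rnaseh2b* KO and 0.40 (limma adjusted p = 0.0077) against *Atg16l1* KO. It did not pass against *Rnaseh2b* KO without *Rnaseh2b* KO library 2 (0.39), nor against WT within lane 1 (0.37), and with correlated pairs it passed in none of these comparisons (limma adjusted p = 0.065, 0.067 and 0.056). *Mthfd2*, of mitochondrial folate metabolism, fell by 0.51 (SE 0.10, limma adjusted p = 0.0025) in *Rnaseh2b* KO organoids, and its interaction was 0.52 (limma adjusted p = 0.0067). With a lane term these were -0.15 and -0.029, and neither passed. *Prps2*, which makes the ribose phosphate donor, was lower in double KO than in *Rnaseh2b* KO, at -0.27 (SE 0.04, limma adjusted p = 0.00048), and higher in *Rnaseh2b* KO than in *Atg16l1* KO, at 0.22 (limma adjusted p = 0.0034), which did not pass without *Rnaseh2b* KO library 2 (0.20) or with correlated pairs. Between the same single knockouts *Guk1*, guanylate kinase, was at 0.23 (limma adjusted p = 0.046), *Chtf18*, of an alternative clamp loader, at -0.20 (limma adjusted p = 0.046), and *Pfas*, of purine synthesis, at -0.17 (limma adjusted p = 0.037). The *Guk1* call was lost with total scaling (0.19) and without *Atg16l1* KO library 1 (0.20), 2 (0.23) or 4 (0.22) or *Rnaseh2b* KO library 1 (0.22) or 2 (0.23), the *Chtf18* call without *Atg16l1* KO library 1 (-0.20), 3 (-0.17) or 4 (-0.17) or *Rnaseh2b* KO library 1 (-0.22) or 2 (-0.17), and the *Pfas* call without *Atg16l1* KO library 2 (-0.17), 3 (-0.16) or 4 (-0.17) or *Rnaseh2b* KO library 1 (-0.18) or 2 (-0.17), and none of these 3 passed with correlated pairs.

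Regulators of S phase entry split by direction. Of 28 tested regulators of the step from G1 to S phase, 5 rose and 6 fell in *Rnaseh2b* KO, 4 rose and 7 fell in *Atg16l1* KO, and 6 rose and 2 fell in double KO organoids, with medians of 0.06, 0.04 and 0.05. Of all genes 14.4% rose and 12.3% fell in *Rnaseh2b* KO, 8.73% and 10.4% in *Atg16l1* KO, and 8.1% and 8.01% in double KO. *Ccne1*, cyclin E, was at 8.41, 8.45, 8.41 and 8.35 in WT, 8.85, 8.76, 8.60 and 8.61 in *Atg16l1* KO, 8.97 and 8.80 in *Rnaseh2b* KO, and 8.99, 8.79, 8.78 and 8.73 in double KO libraries. Every knockout library was above every WT library. It rose by 0.48 (SE 0.09, limma adjusted p = 0.0018) in *Rnaseh2b* KO, 0.30 (SE 0.07, limma adjusted p = 0.01) in *Atg16l1* KO and 0.42 (SE 0.07, limma adjusted p = 0.003) in double KO organoids, with an interaction of -0.36 (limma adjusted p = 0.024) that did not pass without *Rnaseh2b* KO library 1 (-0.27). With a lane term *Ccne1* was 0.35 in *Rnaseh2b* KO and 0.17 in *Atg16l1* KO organoids with an interaction of -0.16, and none of these passed. The interaction did not pass with total scaling (-0.30) either, and with correlated pairs only the rise in *Rnaseh2b* KO organoids passed. *E2f2*, an activator of the E2F family, was at 10.96, 10.97, 11.05 and 11.04 in WT, 11.35, 11.05, 11.33 and 11.36 in *Atg16l1* KO, 11.49 and 11.44 in *Rnaseh2b* KO, and 10.88, 10.88, 10.95 and 11.02 in double KO libraries. It was high in the single knockouts apart from *Atg16l1* KO library 2, and at or under WT in double KO. It rose by 0.46 (limma adjusted p = 0.0011) in *Rnaseh2b* KO and 0.26 (limma adjusted p = 0.01) in *Atg16l1* KO organoids, and in double KO it was -0.53 (limma adjusted p = 0.00061) against *Rnaseh2b* KO and -0.34 (limma adjusted p = 0.0025) against *Atg16l1* KO, with an interaction of -0.79 (SE 0.10, limma adjusted p = 0.00011). With correlated pairs the comparisons of *Atg16l1* KO with WT and with double KO did not pass. *E2f1* did not pass in any comparison, with 0.19 (limma adjusted p = 0.058) in *Rnaseh2b* KO organoids.

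*Myc* was at 10.25, 10.24, 10.18 and 10.30 in WT, 9.74, 9.55, 9.46 and 9.44 in *Atg16l1* KO, 9.81 and 9.77 in *Rnaseh2b* KO, and 10.78, 10.69, 10.29 and 10.34 in double KO libraries. All *Atg16l1* KO and *Rnaseh2b* KO libraries were below WT, and double KO libraries 1 and 2 were far above it while library 3 lay among WT. It fell by 0.45 (SE 0.12, limma adjusted p = 0.015) in *Rnaseh2b* KO and fell by 0.69 (SE 0.10, limma adjusted p = 0.00048) in *Atg16l1* KO organoids, and its interaction was 1.43 (SE 0.15, limma adjusted p = 4.8e-05). In double KO organoids *Myc* was higher than in *Rnaseh2b* KO by 0.74 (limma adjusted p = 0.0013) and than in *Atg16l1* KO by 0.98 (limma adjusted p = 6.1e-05), and against WT it was 0.28 (limma adjusted p = 0.064). The fall in *Rnaseh2b* KO did not pass without *Rnaseh2b* KO library 1 (-0.47) or 2 (-0.43) or with correlated pairs. The falls with a lane term were -0.87 in *Rnaseh2b* KO and -1.11 in *Atg16l1* KO and the interaction was 2.06, all past the threshold. *Cdk6*, a G1 kinase, fell by 0.40 (limma adjusted p = 0.0035) in *Atg16l1* KO and fell by 0.32 (limma adjusted p = 0.024) in *Rnaseh2b* KO organoids, and had an interaction of 0.62 (limma adjusted p = 0.0021). With a lane term these were -0.20, -0.12 and 0.32 and did not pass. The fall in *Rnaseh2b* KO did not pass without WT library 1 (-0.28) or 2 (-0.28) or *Rnaseh2b* KO library 1 (-0.30) or 2 (-0.35) or with correlated pairs.

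The inhibitors *Cdkn1b* and *Rb1* fell in both genotypes without *Rnaseh2b*. *Cdkn1b* fell by 0.27 (limma adjusted p = 0.0041) in double KO and fell by 0.23 (limma adjusted p = 0.011) in *Rnaseh2b* KO organoids, and was -0.04 (limma adjusted p = 0.55) in *Atg16l1* KO. It was also lower in double KO than in *Atg16l1* KO, at -0.23 (limma adjusted p = 0.0056). The fall in *Rnaseh2b* KO did not pass without *Rnaseh2b* KO library 1 (-0.22) or 2 (-0.25), and with a lane term it was -0.28 and did not pass. *Rb1* fell by 0.23 (limma adjusted p = 0.045) in double KO and fell by 0.26 (limma adjusted p = 0.044) in *Rnaseh2b* KO organoids, and was -0.18 (limma adjusted p = 0.096) in *Atg16l1* KO. The *Rb1* call in double KO was lost with total scaling (-0.22) and without WT library 1 (-0.25), 2 (-0.26), 3 (-0.19) or 4 (-0.23) or double KO library 1 (-0.16), 2 (-0.26) or 4 (-0.25), and that in *Rnaseh2b* KO without WT library 1 (-0.28), 3 (-0.22) or 4 (-0.26) or *Rnaseh2b* KO library 1 (-0.24) or 2 (-0.28). With a lane term *Rb1* was -0.16 in double KO and -0.12 in *Rnaseh2b* KO organoids, and neither passed. With correlated pairs none of these *Cdkn1b* and *Rb1* calls passed. *Cdkn1a* fell by 0.33 (limma adjusted p = 0.016) in *Atg16l1* KO organoids, and with a lane term was -0.11 and did not pass, nor did it with correlated pairs.

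Of the 12 genes of G2 and mitosis 0 passed in double KO organoids against WT (limma, 2 at an unadjusted p under 0.05, against 33.0% of all genes), with a median of 0.00. In *Rnaseh2b* KO organoids 3 fell (12.3% of all genes) and 0 rose, with a median of -0.09, and in *Atg16l1* KO 1 rose and 1 fell (8.73% and 10.4% of all genes), with a median of 0.03. *Mki67* was at 0.02 (95% confidence interval -0.07 to 0.11, limma adjusted p = 0.77) in double KO, -0.11 (95% confidence interval -0.22 to 0.00, limma adjusted p = 0.12) in *Rnaseh2b* KO and 0.02 (95% confidence interval -0.07 to 0.11, limma adjusted p = 0.81) in *Atg16l1* KO organoids. The stem cell marker *Lgr5* was at -0.97 (limma adjusted p = 0.00032) in *Rnaseh2b* KO, -0.85 (limma adjusted p = 0.00024) in *Atg16l1* KO and -0.22 (limma adjusted p = 0.17) in double KO organoids, and with a lane term it was -0.53 in *Atg16l1* KO and passed. The RNase H2 partners *Rnaseh2a* and *Rnaseh2c* did not pass in any comparison, nor did *Samhd1*, which breaks down deoxynucleotides, at 0.27 (limma adjusted p = 0.077) in *Rnaseh2b* KO organoids.

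Promoter sequence from RefSeq (GRCm38.p6, 300 bases around each annotated start) was found for 38 of the 45 genes. No entry was held for *Gins4*, *Rfc2*, *Mcm4*, *Gins1*, *Prim2*, *Gins2* and *Pole*. E2F-type motifs, spelled TTTCCCGC, TTTGGCGC or TTTCGCGC on either strand, were in 14 of the 38 (36.8%) and in 2.12% of 27025 genes searched the same way. By motif the shares were 15.8% against 1.24% for TTTCCCGC, 15.8% against 0.585% for TTTGGCGC and 18.4% against 0.374% for TTTCGCGC. The CCAAT box was in 24 of the 38 (63.2%) and in 41.1% of all genes. The E2F-type spellings share letters, and in *Mcm5* TTTCGCGC and the reverse strand of TTTGGCGC overlap.

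Promoters are shown for genes on which the comparisons turn: *Mcm5* and *Mcm3* as helicase genes that rose in double KO organoids, *Orc1* for its interaction, and *Rrm2* as the gene that passed against WT in all 3 knockouts whichever library was left out. They lie at chr8:75109259-75109558, plus strand (*Mcm5*), chr1:20820263-20820562, minus strand (*Mcm3*), chr4:108579204-108579503, plus strand (*Orc1*) and chr12:24708004-24708303, plus strand (*Rrm2*). Capitals mark TTTCCCGC, TTTGGCGC, TTTCGCGC or CCAAT on either strand. *Mcm5* and *Mcm3* hold both kinds of motif, *Orc1* holds TTTCGCGC with CCAAT, and *Rrm2* holds CCAAT and no E2F-type motif in this window. The helicase genes shown do not stand for all that rose. *Mcm2* holds CCAAT and no E2F-type motif, *Mcm7* holds both kinds at chr5:138171834-138172133, and *Mcm4* had no entry.
Mcm5: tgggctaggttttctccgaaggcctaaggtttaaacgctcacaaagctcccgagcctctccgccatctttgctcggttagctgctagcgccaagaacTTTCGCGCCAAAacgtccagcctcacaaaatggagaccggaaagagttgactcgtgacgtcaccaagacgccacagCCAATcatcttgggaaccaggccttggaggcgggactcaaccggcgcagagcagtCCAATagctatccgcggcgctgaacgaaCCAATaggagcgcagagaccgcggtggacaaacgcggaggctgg
Mcm3: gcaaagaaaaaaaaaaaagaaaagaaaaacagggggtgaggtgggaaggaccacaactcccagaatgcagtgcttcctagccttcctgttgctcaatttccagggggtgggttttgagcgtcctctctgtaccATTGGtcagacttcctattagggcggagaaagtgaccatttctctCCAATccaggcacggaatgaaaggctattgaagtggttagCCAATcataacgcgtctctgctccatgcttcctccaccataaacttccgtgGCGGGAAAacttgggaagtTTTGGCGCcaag
Orc1: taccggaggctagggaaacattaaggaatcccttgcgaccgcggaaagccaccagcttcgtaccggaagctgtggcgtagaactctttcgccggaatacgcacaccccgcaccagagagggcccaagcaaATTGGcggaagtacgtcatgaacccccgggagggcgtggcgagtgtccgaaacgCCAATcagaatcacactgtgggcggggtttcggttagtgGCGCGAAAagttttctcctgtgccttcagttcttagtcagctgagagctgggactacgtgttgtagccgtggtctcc
Rrm2: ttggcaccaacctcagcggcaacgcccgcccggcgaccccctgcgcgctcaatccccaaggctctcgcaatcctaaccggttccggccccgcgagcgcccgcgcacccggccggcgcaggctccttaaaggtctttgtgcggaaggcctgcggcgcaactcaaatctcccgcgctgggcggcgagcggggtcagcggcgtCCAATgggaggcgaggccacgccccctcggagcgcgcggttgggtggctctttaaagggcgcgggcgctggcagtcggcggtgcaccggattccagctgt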

How the data were processed

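RNA-seq of small intestinal organoids (14 libraries, 4 genotypes) was used as deposited. Before deposit the authors used cutadapt for trimming, TopHat2 for alignment (GRCm38), HTSeq for gene counts and DESeq2, and the deposited values are normalised and on a log2 scale whose transformation is not named and which strongly reduces the spread of low genes. Versions were not stated, and with no read counts in the table the depth per library and the precision it sets are unknown. Symbols were matched for 99.7% of gene identifiers.

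The 12802 genes whose mean reached the log2 of 10 were fitted with limma 3.58.1 in R 4.3.3, with 1 mean per genotype over all 14 libraries and a mean-variance trend, and p-values were adjusted by Benjamini and Hochberg over all of them with a threshold of 0.05. The code was tested on simulated data. Tables, exact permutation tests and plots were made with Python 3.11.15, numpy 2.4.6, pandas 2.3.3, scipy 1.17.1 and matplotlib 3.10.9. Marker sums are the log2 of summed back-transformed values. The members and lists were chosen with earlier results of these data known.

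Library values are given for the member with the largest change past the threshold in each role and comparison, for the 5 largest absolute log2 fold changes among members in each comparison, and for *Pcna*, *Mcm2*, *Rrm2*, *Tk1* and *Uhrf1*. Of the other lists, fixed names and the 2 largest changes past the threshold in each direction per comparison are given, with some of their other comparisons. *Cdkn1a*, *E2f1*, *Lgr5*, *Mki67*, *Rrm2b*, *Samhd1*, *Rnaseh2a* and *Rnaseh2c* were among those fixed names. Alternatives were a pseudocount of 5, no filter, a filter at 50, total and upper quartile scaling, lane as a covariate, single lanes, a replicate block, correlated pairs, pair means, only the groups compared, no trend, and leaving out each library. Reads were not realigned, no set test was run, and protein sequences were not analysed here.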

Additional observations from a re-analysis of the deposited data

Results flagged for a closer look

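Of 69 groups of 4 libraries tested over 23 genes, 2 held a library far from the others, and chance marks about 1 in 20 groups. *Rrm2* was at 11.22 in WT library 1, where the other WT libraries were between 11.13 and 11.14. *Ung* was at 9.40 in double KO library 1, where the other double KO libraries were between 9.26 and 9.27. In 7 genes the step from *Atg16l1* KO to double KO differed from the step from WT to *Rnaseh2b* KO, by limma's test of the interaction: *Cdt1* (-0.21), *Orc1* (0.55), *Pold1* (0.20), *Rrm2* (-0.23), *Tk1* (-0.19), *Ticrr* (0.31) and *Uhrf1* (-0.24), as log2 differences. The causes were not tested.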

How the results depend on the processing

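The counts of genes past the threshold were 7 for *Rnaseh2b* KO, 5 for *Atg16l1* KO and 18 for double KO against WT, 1 for double KO against *Rnaseh2b* KO, 8 for double KO against *Atg16l1* KO, 1 for *Rnaseh2b* KO against *Atg16l1* KO, and 7 for the interaction. In that order, leaving out single libraries gave 1 to 7, 2 to 5, 2 to 18, 0 to 2, 2 to 11, 0 to 2 and 2 to 8. The calls kept in all those fits were 1 of 7, 2 of 5, 2 of 18, 0 of 1, 2 of 8, 0 of 1 and 1 of 7. Lane as a covariate gave 2, 1, 1, 5, 21, 1 and 4. Fits with correlated pairs of libraries gave 1, 0, 0, 0, 0, 0 and 0 (limma, 5, 4, 16, 1, 5, 0 and 3 at an unadjusted p under 0.05), and pair means gave 0 in every comparison (limma, 4, 2, 10, 1, 3, 1 and 4 at an unadjusted p under 0.05). No share of all genes is given for pair means, so those counts cannot be set against a background. With only the groups compared the counts were 18 for *Rnaseh2b* KO and 9 for double KO against WT (31.7% and 9.84% of all genes). As raw counts these reverse the order above, but the share of all genes was larger in *Rnaseh2b* KO too. In the same kind of fit the counts were 0 for double KO against *Rnaseh2b* KO (limma, 5 at an unadjusted p under 0.05), 2 for double KO against *Atg16l1* KO and 0 between the single knockouts (limma, 6 at an unadjusted p under 0.05). Without a filter they were 11 for double KO against WT, 4 for double KO against *Atg16l1* KO and 0 between the single knockouts (limma, 4 at an unadjusted p under 0.05). For double KO against *Rnaseh2b* KO total scaling gave 5 (28.8% of all genes), lane 2 alone 3 (21.0%) and upper quartile scaling 2 (share of all genes not given). For double KO against WT lane 1 alone gave 8 (10.2% of all genes). Between the single knockouts total scaling and a fit with no mean-variance trend gave 0 (limma, 5 and 4 at an unadjusted p under 0.05). A replicate block gave 8 for *Atg16l1* KO against WT, 5 for double KO against *Rnaseh2b* KO and 0 between the single knockouts (limma, 6 at an unadjusted p under 0.05), but replicate numbers do not pair across genotypes. The share of all genes is not given for this block, so its counts have no background. Some single values changed sign. Lane as a covariate gave -0.039 for *Fen1* in *Rnaseh2b* KO and -0.083 for *Mcm2* in *Atg16l1* KO against WT, 0.0115 for *Uhrf1* between double KO and *Atg16l1* KO (also 0.0115 in lane 2 alone), and interactions of 0.24 for *Mcm2*, 0.046 for *Rpa2* and -0.029 for *Mthfd2*. The *Mcm2* interaction was 0.034 with total scaling, 0.037 with the replicate block and -0.075 to 0.031 with single libraries left out. *Pcna* in *Atg16l1* KO against WT was 0.002 with upper quartile scaling, and *Tk1* in double KO against *Rnaseh2b* KO was 0.024 with total scaling. With single libraries left out, *Pcna* ranged from -0.033 to 0.0197 in *Atg16l1* KO against WT, from -0.0105 to 0.046 in double KO against *Rnaseh2b* KO and from -0.0019 to 0.055 in the interaction, *Tk1* from -0.0164 to 0.027 in double KO against WT, and *Uhrf1* from -0.056 to 0.0111 in double KO against *Atg16l1* KO. Correlations of deviations between same-numbered libraries of different genotypes ran from -0.502 to 0.442. The cause was not tested for any of these. The unknown depth limits what can be said of small differences.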
